A study of Rattus norvegicus with 6 samples.

Results

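Genes that set the calcium level of the smooth muscle cell were followed in cerebral arteries of Dahl rats. The 10 genes were Cacna1c, Cacna1d, Cacna1g and Cacnb3, which serve calcium entry, Itpr1, which serves release from the store, and Atp2a2, Atp2a3, Atp2b1, Atp2b4 and Slc8a1, which serve removal. The genes were chosen by symbol from the array platform's annotation, and all 10 of 10 were found among the 10411 genes with a name of their own. They were covered by 18 of 15866 probe sets (a probe set is the group of short probes that reports 1 transcript). Each gene was read from its brightest probe set (highest mean of all 6 arrays), and the other 8, which belonged to 5 genes, served as a check.

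The low salt group was Dahl rats put at 7 weeks of age on chow with 0.4% NaCl for 12 weeks, and the high salt group was Dahl rats put at the same age on chow with 8% NaCl. For high salt the labels give 11 weeks in the sample characteristics and 12 weeks in the protocol. All rats had eaten 0.4% NaCl chow before, no genotype, substrain or blood pressure is given for any group, and Dahl rats are known as a rat model of salt-induced hypertension. Each array held RNA from the middle cerebral, posterior cerebral and posterior cerebellar arteries of 3 pooled rats (9 rats and 3 arrays for each diet), and the arrays compared intact vessels. Arteries were frozen or kept in a preservative, and which pool had which is not stated.

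A smooth muscle cell contracts when calcium in its cytosol rises. Calcium enters through voltage-gated channels in the plasma membrane and is released from the sarcoplasmic reticulum through inositol trisphosphate receptors and ryanodine receptors. It is taken back into the store by the SERCA pumps and moved out of the cell by the plasma membrane calcium ATPases and the sodium-calcium exchanger. In small cerebral arteries the L-type channel is known as the main route of entry behind myogenic tone, the constriction that answers a rise in pressure.

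None of the 10 genes was shown to differ between diets. By limma with Benjamini-Hochberg adjustment over all probe sets 0 of 10 passed an adjusted p below 0.05, where 0.0% of all probe sets did. Their adjusted p ran from 0.803 to 0.988. At an unadjusted p below 0.05 stood 0 of 10 genes, against 5.33% of all probe sets. The largest difference in size was that of Atp2a2, at -0.25 log2 units, and the median over the 10 genes was -0.05, against 0.07 over all named genes. On high salt 7 of the 10 were lower and 3 higher, whereas 60.0% of all named genes were higher. The count of lower genes rests on the scaling of the arrays. It was 9 of 10 after median centring and 10 of 10 after quantile normalization, 5 of 10 without low salt replicate 3, and 0 of 10 when every array was set to its own mean of smooth muscle markers. The background moved too: in the same order the median over all named genes was -0.06, -0.02, 0.08 and 0.38. The share of all named genes that were lower was not counted in these settings, so the counts are no result about the 10 genes.

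The 95% interval of the difference (from limma's moderated variance) lay within 2-fold in both directions for 9 of 10 genes, and for 72.1% of all named genes. The exception was Itpr1, whose interval reached 2.05-fold higher. Among the 9 were Cacna1d and Atp2b4, whose main probe sets had means below the lower quartile of all probe sets, and at so low a signal a narrow interval sets no bound on the transcript. Of the 8 genes above that quartile 7 had an interval within 2-fold, against 66.6% of all named genes above it. The lowest bound of any of the 10 was 0.555 of the low salt level, for Atp2a3. Of the 10 intervals, 6 to 9 lay within 2-fold with 1 array left out, the fewest without high salt replicate 1, and 7 did relative to the smooth muscle markers. A p that misses the threshold does not show that the diets gave the same level, and smaller changes than these bounds could not be told from no change with 3 arrays per diet.

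**Figure D1:**
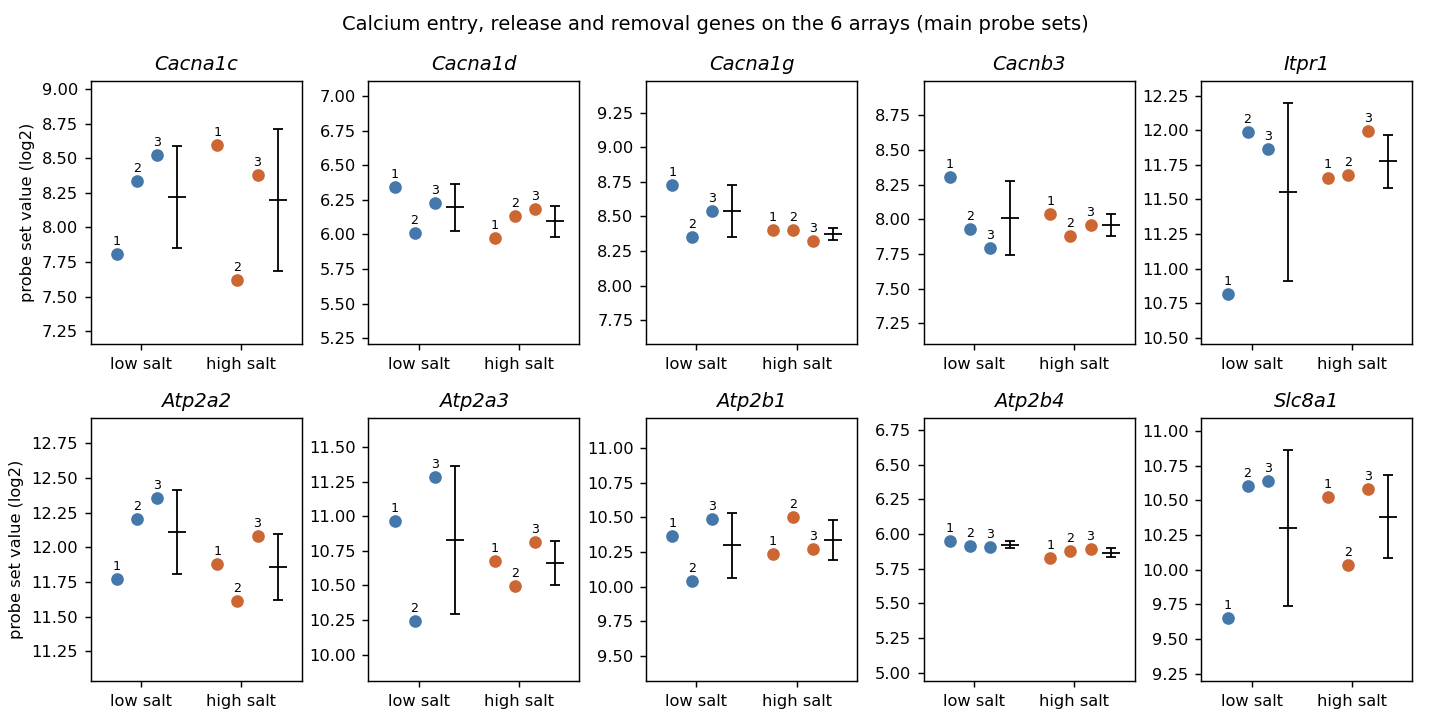
Each panel plots 1 gene's main probe set in log2 units (each axis spans the same number of log2 units) on the 3 low salt arrays (blue) and 3 high salt arrays (orange), numbered by replicate, with the mean and SD of each diet as a black bar. The diets overlap in all panels except Atp2b4, and the low salt points of Itpr1, Atp2a3 and Slc8a1 are spread more widely (SD 0.64, 0.53 and 0.56) than the high salt points (SD 0.19, 0.16 and 0.30).

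Some features of the arrays touch these genes. Array medians ran from 7.96 on low salt replicate 1 to 8.17 on high salt replicates 1 and 3, and median centring moved the median difference of all named genes from 0.07 to -0.06, so that differences of this size depend on the scaling. A labelled vascular tissue was borne out by the markers of smooth muscle, of which 11 of 12 were measured and none lay below the lower quartile of all probe sets (6.60). Their mean was 12.04, 11.41 and 12.20 on low salt replicates 1, 2 and 3 and 11.66, 11.51 and 11.55 on the high salt arrays, and 11 of 11 were lower on high salt with 0 passing the test. The mean of 10 of 10 astrocyte markers was 9.27, 10.96 and 8.63 on the low salt arrays and 10.64 to 10.82 on high salt, with 9 of 10 higher. The mean of the 10 neuron markers measured was 7.08 to 7.38 over all 6 arrays. Markers of red blood cells and platelets (5 of 7 measured) had a mean of 9.72 to 10.01 on low salt and 10.33 to 10.41 on high salt, without overlap, with 4 of 5 higher and 0 passing the test. Macrophage and microglia markers (7 of 8 measured) had a mean of 8.48 to 9.23 on low salt and 9.16 to 9.49 on high salt, with 5 of 7 higher and 0 passing. In pooled whole tissue, fewer cells of a type and less RNA per cell cannot be told apart, and the part of these cell types in the results below was not tested.

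Entry through the L-type channel was represented by the transcripts of its pore subunits. The arrays read RNA, and the activity of channels and pumps was not measured. Cacna1c encodes the pore of the L-type channel of arterial smooth muscle. Its main probe set read 7.81, 8.33 and 8.52 on low salt replicates 1, 2 and 3, and 8.59, 7.62 and 8.38 on high salt replicates 1, 2 and 3. Each diet thus had 1 low array, low salt replicate 1 and high salt replicate 2, with the other 4 at 8.33 or more, and the lowest and the highest of all 6 arrays were both from high salt rats. The means were 8.22 ± 0.37 (SD, n = 3) and 8.20 ± 0.51, a difference of -0.02 ± 0.31 (SE), and the interval of the fold ran from 0.578 to 1.67. Leaving out 1 array moved the difference from -0.23 (without low salt replicate 1) to 0.26 (without high salt replicate 2). The second probe set of the gene was dim, at 5.84 to 6.02 on all 6 arrays, and differed by 0.03 ± 0.09.

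Cacna1d encodes another L-type pore, known from pacemaking and endocrine cells and from hair cells. All of its 3 probe sets had means below the lower quartile of the arrays, the brightest at 6.34, 6.01 and 6.23 on low salt and 5.97, 6.13 and 6.19 on high salt. The files give no detection calls, and at so low a signal the difference of -0.10 ± 0.13 says little. The other probe sets gave -0.10 ± 0.11 and -0.08 ± 0.09.

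Cacna1g encodes a T-type pore, a channel that opens at more negative voltages. It read 8.73, 8.35 and 8.54 on low salt and 8.40, 8.40 and 8.33 on high salt. The high salt arrays lay close together, at the level of low salt replicate 2, and the other low salt arrays lay above them. The difference was -0.17 ± 0.12, the one with the lowest p of the 10 genes, at an adjusted p of 0.803 (limma, Benjamini-Hochberg). Median centring gave -0.30 and quantile normalization -0.35, and leaving out low salt replicate 1 gave -0.07. In the smooth muscle marker mean, too, low salt replicate 2 read lower than the other low salt arrays. The same held for the endothelial, pericyte and Schwann cell means. For the astrocyte, oligodendrocyte and neuron means that array read higher than the other low salt arrays. The part of these cell types in the values of Cacna1g was not tested.

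Cacnb3 encodes a beta subunit, a cytosolic partner that carries channel pores to the membrane. It read 8.31, 7.93 and 7.79 on low salt and 8.04, 7.88 and 7.96 on high salt, all 3 high salt values inside the low salt range. The difference was -0.05 ± 0.16, and it was 0.10 without low salt replicate 1, the highest array of the 6.

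Release from the store was represented by Itpr1, the type of inositol trisphosphate receptor best known from cerebellar neurons and smooth muscle. Its probe set read 10.81, 11.99 and 11.86 on low salt replicates 1, 2 and 3, and 11.66, 11.67 and 11.99 on high salt. The 5 arrays other than low salt replicate 1 lay within 11.66 to 11.99, and that array stood apart below them. The upper quartile of all probe sets was also lowest on that array, at 9.22 against 9.50 to 9.71 on the others. A low reading there is thus not particular to this gene, and the part of the array in it was not tested. The means of Itpr1 were 11.56 ± 0.64 and 11.78 ± 0.19. The difference was 0.22 ± 0.33, or 1.17-fold with an interval of 0.663 to 2.05. Without low salt replicate 1 the difference was -0.15, and after quantile normalization it was -0.000166. Markers of cerebellar Purkinje and granule cells, a possible neuronal source of this transcript, had a mean between 6.50 and 6.66 on all 6 arrays, near the lower quartile. Of the 8 markers measured 3 lay below that quartile, so their mean says little about this source, which was not tested.

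Slc8a1, the sodium-calcium exchanger that trades calcium for sodium across the plasma membrane, was also lowest on low salt replicate 1. Its main probe set read 9.65, 10.60 and 10.64 on low salt and 10.53, 10.04 and 10.58 on high salt. High salt replicate 2, which lay among the 5 close arrays for Itpr1, was here the next lowest, and the other 4 arrays lay within 10.53 to 10.64. The means were 10.30 ± 0.56 and 10.38 ± 0.30, a difference of 0.08 ± 0.31. The sign was not stable: median centring gave -0.05 and quantile normalization -0.14, and the difference was -0.24 with low salt replicate 1 left out and 0.25 without high salt replicate 2 or low salt replicate 3. A dim second probe set (mean 6.31) gave -0.02 ± 0.10.

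Over the 6 arrays, after median centring, the values of Itpr1 and Slc8a1 had a Pearson correlation of 0.87, and those of Slc8a1 and Cacna1c of 0.84 (n = 6 arrays, given as a description; the points share the scaling and the pools). The genes whose pattern was most like that of Itpr1 were Cops7a (r = 0.996) and Cyb5r4 (r = 0.995), and those most like Slc8a1 were Trim24 (r = 0.998) and Ap1ar (r = 0.996). Of the 5204 genes compared, those above the median level, 8.67% had r of at least 0.9 with Itpr1 and 2.82% with Slc8a1. For Atp2a2, Atp2a3 and Atp2b1 the shares were 0.576%, 1.08% and 1.10%. The share thus differed between genes at the same number of arrays, and many genes had the pattern of Itpr1. Trim24, a nuclear cofactor, read 8.36, 9.20 and 9.22 on low salt and 9.12, 8.70 and 9.14 on high salt, and so shares the low values of low salt replicate 1 and high salt replicate 2.

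The sequences at the start sites of Itpr1 and Slc8a1 are shown, 250 bases before to 50 bases after 1 annotated start per gene (RefSeq, assembly GRCr8, strand +, at chr4:142743190-142743489 for Itpr1 and chr6:19023309-19023608 for Slc8a1). No link between these letters and the values on the arrays was tested. GGGCGG on either strand, the core of the GC box that Sp1 family factors bind, is set in capitals where it occurs, and overlapping copies are counted apart.
Itpr1: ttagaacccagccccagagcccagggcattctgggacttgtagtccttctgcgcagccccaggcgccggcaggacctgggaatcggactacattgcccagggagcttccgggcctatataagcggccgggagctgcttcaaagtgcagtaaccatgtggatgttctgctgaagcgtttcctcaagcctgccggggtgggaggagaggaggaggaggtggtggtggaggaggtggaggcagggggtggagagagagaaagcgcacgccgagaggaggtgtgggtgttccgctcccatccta
Slc8a1: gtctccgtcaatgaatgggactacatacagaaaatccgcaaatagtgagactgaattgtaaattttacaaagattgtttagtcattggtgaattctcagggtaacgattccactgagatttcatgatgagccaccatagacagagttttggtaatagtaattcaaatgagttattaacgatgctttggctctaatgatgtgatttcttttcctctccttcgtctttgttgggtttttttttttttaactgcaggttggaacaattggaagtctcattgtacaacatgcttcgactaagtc
These letters occur in neither window. The GC content was 62.0% for Itpr1 and 36.3% for Slc8a1, against a median of 51.7% over all windows of this length. Near its annotated start the Slc8a1 window has a run of t and then cag, letters like those that end an intron. It may therefore not be a promoter, and which start is used in these arteries was not tested.

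**Figure D2:**
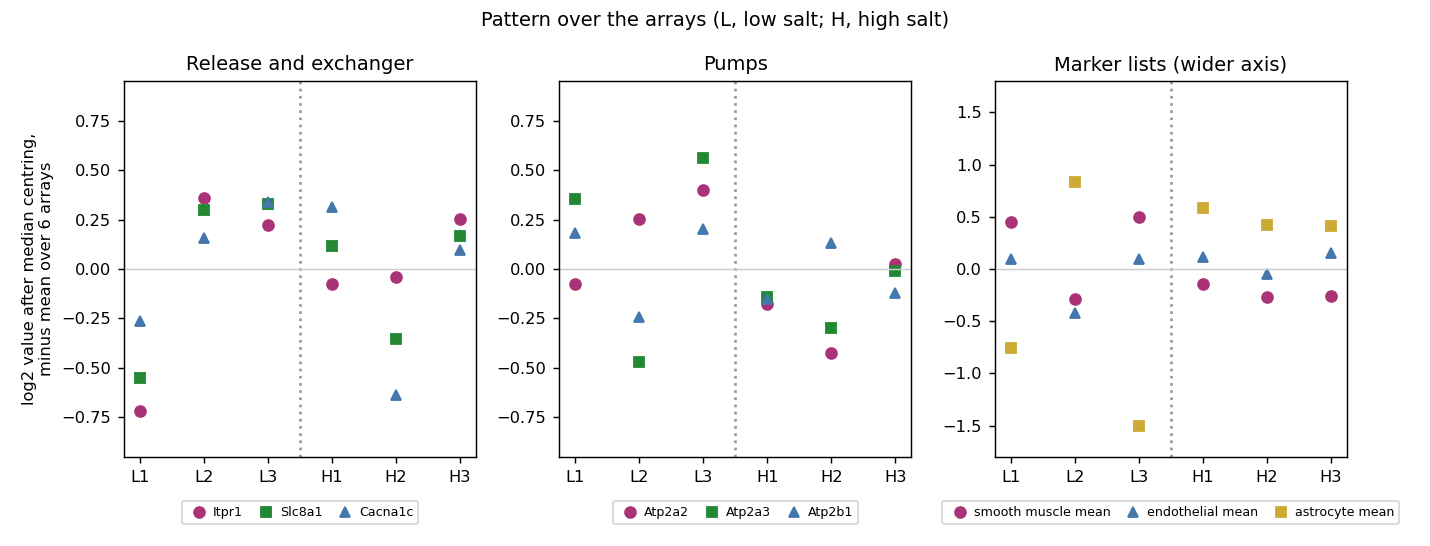
Values in log2 units after median centring, minus each gene's mean over the 6 arrays, are plotted by array (L1 to L3, low salt replicates; H1 to H3, high salt replicates) for Itpr1, Slc8a1 and Cacna1c (left), for the pumps Atp2a2, Atp2a3 and Atp2b1 (middle) and for the means of 3 marker lists (right, on a wider axis). Itpr1 and Slc8a1 are lowest on L1, and Atp2a3 is lowest on L2, where the smooth muscle mean is low (11.41 before centring) and the astrocyte mean high (10.96).

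Removal into the store was represented by the transcripts of the SERCA genes. Atp2a2 encodes SERCA2, the main pump of the sarcoplasmic reticulum in smooth muscle and heart. Its brightest probe set read 11.77, 12.20 and 12.36 on low salt and 11.88, 11.61 and 12.09 on high salt. The diets overlapped, with low salt replicate 1 below 2 of the 3 high salt arrays. The means were 12.11 ± 0.30 and 11.86 ± 0.24, a difference of -0.25 ± 0.20, or 0.839 of the low salt level with an interval of 0.596 to 1.18.

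The gene had 4 probe sets, the most of the 10 genes, and all gave a negative difference. The other 3 gave -0.09 ± 0.14 at a mean of 11.93, -0.10 ± 0.18 at 10.52 and -0.09 ± 0.11 at 6.58, each smaller in size than the main one. The probe set at 11.93 read 11.72, 12.03 and 12.18 on low salt and 11.83, 11.96 and 11.87 on high salt, with low salt replicate 1 lowest here, where the main probe set was lowest on high salt replicate 2. Probe sets of 1 gene on the same arrays are not replicates. The mean over the 4 probe sets differed by -0.13. For the main probe set median centring gave -0.38 and quantile normalization -0.43, the difference was 0.06 relative to the smooth muscle markers, and with 1 array left out it ran from -0.42 (without low salt replicate 1) to -0.13 (without low salt replicate 3 or high salt replicate 2).

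Atp2a3 encodes SERCA3, a pump known mainly from endothelial cells, platelets and other blood cells. Its main probe set read 10.97, 10.24 and 11.28 on low salt and 10.68, 10.50 and 10.81 on high salt. The high salt arrays all lay between low salt replicate 2, the lowest, and low salt replicate 1. The difference was -0.17 ± 0.28. Leaving out low salt replicate 2 gave -0.46 and leaving out low salt replicate 3 gave 0.06, so that 1 pool changed its size and its sign. A dimmer probe set (mean 6.94) gave -0.07 ± 0.10.

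The low value of Atp2a3 on low salt replicate 2 went with that array's marker levels. The endothelial marker mean (8 of 10 genes measured, none below the lower quartile) was 9.71, 9.28 and 9.81 on low salt and 9.75 to 9.97 on high salt, lowest on low salt replicate 2. The pericyte mean (6 of 6) was 8.66, 8.39 and 8.85 on low salt and 8.68, 8.55 and 8.68 on high salt. Over the 6 arrays, after median centring, Atp2a3 had a correlation of 0.99 with the pericyte mean, 0.93 with the smooth muscle mean, 0.66 with the endothelial mean and -0.95 with the astrocyte mean (n = 6, a description). With the mean of red blood cell and platelet markers it was -0.30, and with that of macrophages and microglia -0.25. The genes most like it in pattern were Pllp (r = 0.992), a membrane protein known from myelin, and the collagen chain Col6a1 (r = 0.981). Of the genes compared 1.08% had r of at least 0.9 with Atp2a3. Its correlation was -0.89 with the oligodendrocyte marker mean and 0.55 with the Schwann cell marker mean. For Atp2a2 the correlations with the smooth muscle and astrocyte means were 0.41 and -0.45, and the genes most like it were Slain2 (r = 0.979) and Map3k20 (r = 0.967).

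The start-site windows of Atp2a2 and Atp2a3 are shown as well (RefSeq, assembly GRCr8, strand +, at chr12:39733269-39733568 for Atp2a2 and chr10:58080402-58080701 for Atp2a3), with GGGCGG on either strand in capitals.
Atp2a2: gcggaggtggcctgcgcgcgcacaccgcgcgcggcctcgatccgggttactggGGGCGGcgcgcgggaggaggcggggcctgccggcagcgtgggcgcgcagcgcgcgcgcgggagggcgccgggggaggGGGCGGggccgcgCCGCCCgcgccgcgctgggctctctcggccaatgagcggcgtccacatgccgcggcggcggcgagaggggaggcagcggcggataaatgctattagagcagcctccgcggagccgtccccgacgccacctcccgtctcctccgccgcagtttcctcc
Atp2a3: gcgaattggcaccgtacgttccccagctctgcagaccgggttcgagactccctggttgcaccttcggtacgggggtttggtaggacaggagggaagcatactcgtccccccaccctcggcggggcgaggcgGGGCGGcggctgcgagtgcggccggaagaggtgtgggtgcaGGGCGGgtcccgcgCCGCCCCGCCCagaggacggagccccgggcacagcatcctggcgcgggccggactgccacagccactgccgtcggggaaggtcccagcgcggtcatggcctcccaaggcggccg
The motif occurs 3 times in the window of Atp2a2 and 4 times in that of Atp2a3. Start-site windows of 9 of the 10 genes, that of Slc8a1 among them, were found in the RefSeq table (Cacna1g was not matched). The motif was held by 5 of these 9, among them Atp2b1 with 3 copies, against 33.1% of the 33469 windows of this length. The CArG box, the motif of serum response factor in smooth muscle genes, was found on either strand in 0 of 9 windows, against 1.64% of all. A match or its absence is a property of these letters only.

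Removal out of the cell by plasma membrane pumps was represented by the transcripts of Atp2b1 and Atp2b4. Atp2b1 encodes a plasma membrane calcium ATPase present in most cells. It read 10.36, 10.04 and 10.49 on low salt and 10.24, 10.50 and 10.27 on high salt, with all 6 arrays within 0.46 log2 units. The means were 10.30 ± 0.23 and 10.34 ± 0.14, a difference of 0.04 ± 0.15, or 1.03-fold with an interval of 0.790 to 1.33. Its sign turned after median centring (-0.09) and quantile normalization (-0.21), and the genes most like it in pattern were Nob1 (r = 0.982) and Ssr4 (r = 0.976). Of the 5 genes above the median level of named genes, Atp2b1 had the narrowest interval.

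Atp2b4, another plasma membrane calcium ATPase, known from smooth muscle, red cells and neurons, read 5.95, 5.91 and 5.90 on low salt and 5.83, 5.88 and 5.89 on high salt. It was the 1 gene of 10 whose diets did not overlap, where 11.2% of all probe sets did not. The lowest low salt array and the highest high salt array read 5.90 and 5.89, and all values are under the lower quartile of probe sets (6.60), so that the difference of -0.06 ± 0.08 says little about the transcript. After median centring its correlation was -0.95 with the red blood cell and platelet mean and 0.94 with the cerebellar marker mean (n = 6, a description). Before centring its values spanned only 0.13 log2 units, less than the array medians that were subtracted (7.96 to 8.17). For so flat a signal the centring itself can set the pattern, so these correlations say little. The part of those cells was not tested.

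**Figure D3:**
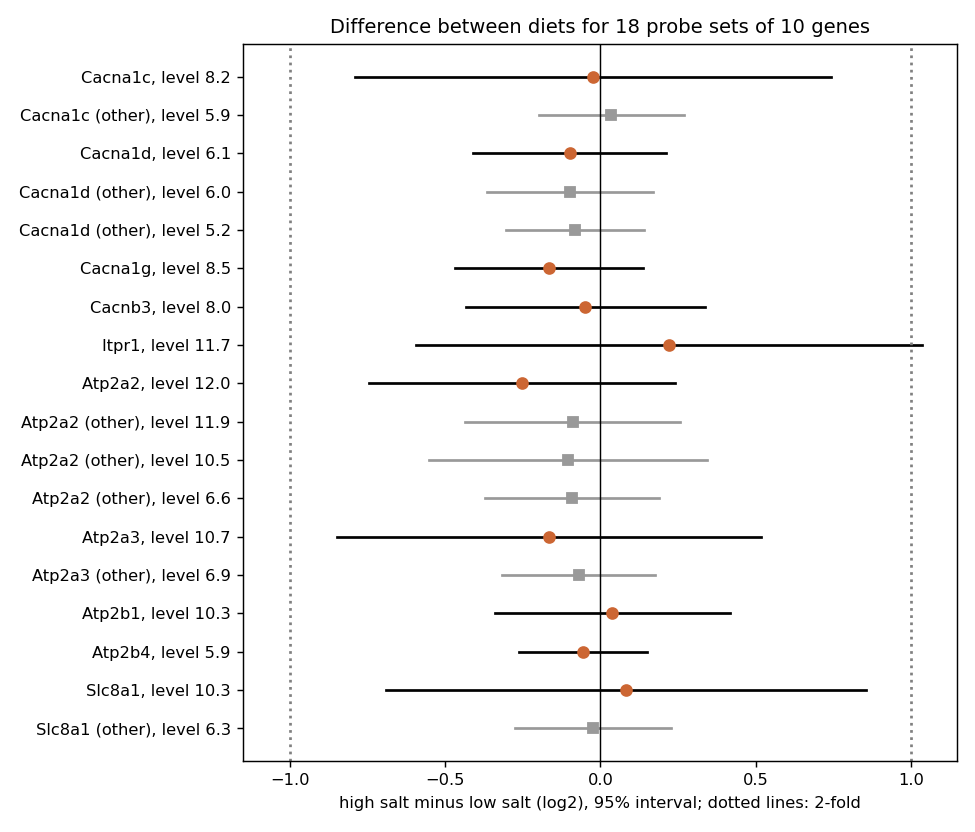
The difference between diets (high minus low, log2) with its 95% interval for 18 probe sets of 10 genes, main probe sets in orange and the others in grey, with the mean level of each beside its name and dotted lines at 2-fold. All intervals include 0, and the 1 interval that crosses a dotted line is that of Itpr1 (-0.59 to 1.03).

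The spread between pools was larger on low salt for most of these genes. The SD over 3 arrays was larger on low salt for 8 of 10 (Cacna1c and Atp2b4 were the others), with a median ratio of 1.75, and larger on low salt for 71.0% of all named genes, with a median ratio of 1.63. The 10 genes were thus near the background of the arrays in this respect, and no test was made of it.

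The other genes of calcium handling were taken from a list of 88, of which 76 were measured. By limma with Benjamini-Hochberg adjustment over all probe sets 0 of 76 passed. At an unadjusted p below 0.05 stood 1 higher and 0 lower, against 4.63% and 0.7% of all probe sets. The diets did not overlap for 2 higher genes (Slc8b1 and Calr) and 3 lower ones (Cacna1b, Cacng7 and Jph1, each by 0.12 log2 units or less and named after their values were seen), against 7.23% and 3.93% of all probe sets. The median difference was -0.02, with 33 higher and 43 lower. Brightness moved this median: among the 33 above the median level of named genes, 20 were higher and the median was 0.12, and among all 5205 named genes above that level it was 0.23. Of the 10 genes of entry, release and removal 5 lay above that level, with a median of 0.04. The counts by role below need the same background. Of all named genes 60.0% were higher, and of the 5205 brighter ones 3925 were higher and 1280 lower. No test was made of the counts by role.

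Of 20 other voltage-gated channel subunits 17 were lower and 3 higher, with a median of -0.07. Of the 20, 9 lay below the lower quartile and only 1 above the median level of named genes. The share of lower genes among the dimmer named genes was not counted apart, so this count is no result about the channels. The beta subunit Cacnb2, the brightest, read 9.08, 9.84 and 9.80 on low salt and 9.58, 9.30 and 9.70 on high salt, a difference of -0.05 ± 0.24, with low salt replicate 1 the lowest of its diet, as in Cacna1c. The most negative difference of the list belonged to Cacna1h, a T-type pore like Cacna1g, named here after its values were seen. It read 8.86, 7.16 and 8.46 on low salt and 7.29, 7.30 and 7.16 on high salt, a difference of -0.91 ± 0.43 (adjusted p = 0.803, limma), or -1.04 after median centring. The order is that of Cacna1g, with low salt replicate 2 at the level of the high salt arrays and the other low salt arrays above, and the diets overlapped.

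Store-operated entry, which refills an emptied store, was represented by 3 of 6 genes, 2 higher and 1 lower, with a median of 0.25. Stim1, the calcium sensor of the store, differed by 0.25 ± 0.19 and the channel subunit Trpc1 by 0.34 ± 0.21, and Stim1 stood at -0.01 after quantile normalization. Orai1, the pore subunit of the store-operated channel, was the lower one, at -0.16 ± 0.41. Among 10 release channels and partners 6 were higher, with a median of 0.11. Fkbp1a, which binds release channels, differed by 0.34 ± 0.23 and by 0.22 ± 0.20 and 0.38 ± 0.18 on its other probe sets. Sri (sorcin, a calcium-binding regulator of release) read 7.97, 8.51 and 9.21 on low salt and 8.83, 9.67 and 9.03 on high salt, a difference of 0.61 ± 0.37 with overlapping diets.

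Of 10 other pumps and exchangers 5 were higher, and the single gene of the list at an unadjusted p below 0.05 was among them. Slc8b1, the sodium-calcium exchanger of mitochondria, read 8.82, 9.19 and 8.94 on low salt and 9.68, 9.51 and 9.35 on high salt. All 3 high salt arrays lay above all 3 low salt arrays, and the difference was 0.53 ± 0.14, or 1.44-fold, at an adjusted p of 0.803 (limma, Benjamini-Hochberg). Median centring gave 0.40 and quantile normalization 0.32, and it remains short of the threshold. Slc24a3, an exchanger that also moves potassium, had the largest difference of the list, 1.31 ± 0.65. It read 9.08, 11.41 and 9.15 on low salt and 10.95, 11.22 and 11.38 on high salt, so that low salt replicate 2 was the highest of all, as it was for the astrocyte mean. A dim second probe set of Slc24a3 gave 0.01 ± 0.11.

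The regulators of the SERCA pump and the proteins that bind calcium in the store were split, 4 higher and 4 lower of 8. Phospholamban (Pln), which restrains SERCA2, read 12.82, 12.56 and 13.12 on low salt and 12.49, 12.28 and 12.79 on high salt, a difference of -0.31 ± 0.20, and -0.25 ± 0.24 on its other probe set. It thus stood on the same side as Atp2a2, with the diets overlapping and neither passing the test. Calreticulin (Calr), the calcium-binding chaperone of the store, read 11.27, 11.59 and 11.45 on low salt and 11.60, 11.80 and 11.74 on high salt, without overlap, a difference of 0.28 ± 0.12 that median centring brought to 0.15 and quantile normalization to 0.07. Of 4 genes of mitochondrial uptake 3 were higher, with Smdt1, a subunit of the uniporter complex, at 0.45 ± 0.28.

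The enzymes that read the calcium signal were not called either. Of 12 genes of calmodulin and its enzymes 9 were higher, with a median of 0.08. Mylk, the myosin light chain kinase that starts contraction, which is also in the smooth muscle marker list, differed by -0.08 ± 0.17 and stood at -0.21 after median centring. Of 9 genes of phospholipase C and its G proteins, which make inositol trisphosphate, 8 were lower, with a median of -0.14. Plcb3 differed by -0.33 ± 0.20, with low salt replicate 2 (9.16) at the level of the high salt arrays (9.18 to 9.31), and Plcg1 by -0.01 ± 0.13.

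**Figure D4:**
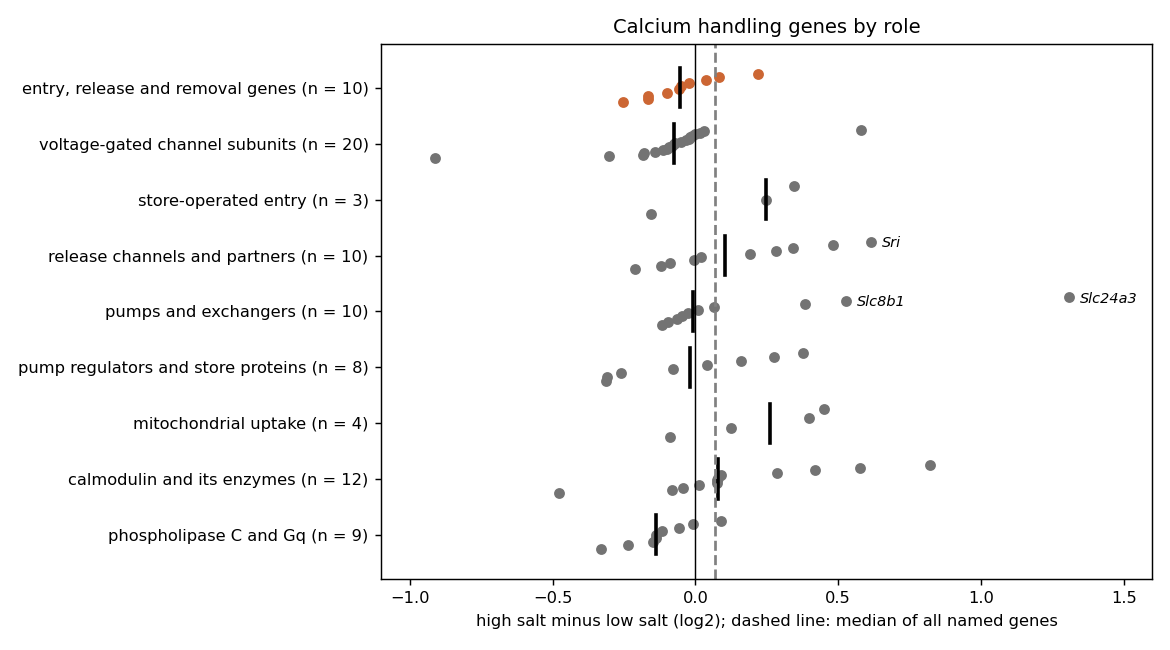
Each point is 1 gene's difference between diets (high minus low, log2), by role, with the 10 genes of entry, release and removal in orange on top, the median of each group as a black bar, and the median of all named genes (0.07) as a dashed line. The points of the 10 genes lie between -0.25 and 0.22, and Slc24a3 lies farthest right at 1.31.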

How the data were processed

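RNA of 6 pools was measured on Affymetrix rat arrays after 2 rounds of amplification, per the labels' protocols. The authors deposited log2 values made with RMA, per the submitters' processing notes; its version and the base of the log are not given in the sources used here, and base 2 was read from the range of the values. Of 15923 rows 57 were controls and left out. Names came from the platform annotation, matched by Entrez identifier to RefSeq genes of GRCr8 (12748 of 12783 probe sets with 1 symbol; 312 with several and 2771 with none were not named).

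The diets were compared with limma 3.58.1 in R 4.3.3 (lmFit and eBayes, no block, 3 against 3, adjustment over 15866 probe sets), tested on simulated data. Replicates are pools of separate rats, so their spread joins biological and technical error, and the number of arrays limits the precision. Of the list, Orai1, Cacna1h, Cacna1b, Cacng7 and Jph1 were named outside the rule. The other genes of the list named in the text were the brightest of each role and the 8 of lowest p above the median level. Genes alike in pattern were the 2 of highest correlation for each of the 5 genes above that level. The 10 genes, the lists and the rules were chosen with earlier results of these data known. Alternatives were quantile normalization, median centring, leaving out single arrays, array weights, a replicate block, trended robust variances, dropping probe sets below the 40th percentile, averaging the probe sets of a gene, adjusting over 1 probe set per gene and a threshold of 0.1. Scaling to the smooth muscle markers, the count of lower genes and the count of intervals within 2-fold were added after seeing the data.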

Additional observations from a re-analysis of the deposited data

How the results depend on the processing

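In all 15 alternatives with a count of calls 0 probe sets passed the adjusted threshold of the limma comparison. For averaging the probe sets of a gene no such count was made. Of 148 values of the 10 genes under other settings 0 passed (lowest adjusted p 0.268, limma), while 26 turned in sign. Signs turned for Atp2b1 (-0.093) and Slc8a1 (-0.048) after median centring, for Itpr1 (-0.000166), Atp2b1 (-0.21) and Slc8a1 (-0.14) after quantile normalization, for Cacnb3 (0.085), Atp2b1 (-0.067) and Slc8a1 (-0.10) with array weights, and for Cacna1c (0.0054) with the mean over probe sets. Relative to the smooth muscle markers all 10 genes were higher (0 lower), with turned signs for Cacna1c (0.29), Cacna1d (0.22), Cacna1g (0.15), Cacnb3 (0.27), Atp2a2 (0.062), Atp2a3 (0.15) and Atp2b4 (0.26). That scaling subtracts a mean that was itself lower on high salt, and it raised most genes. The median of all named genes was then 0.38, above the 0.26 of the 10 genes. Of 1791 probe sets at an unadjusted p below 0.05 (limma) 1783 were then higher. With 1 array left out the difference ran from -0.23 to 0.26 for Cacna1c, -0.16 to 0.10 for Cacnb3, -0.15 to 0.44 for Itpr1, -0.46 to 0.060 for Atp2a3, -0.091 to 0.13 for Atp2b1 and -0.24 to 0.25 for Slc8a1. The median of the 10 genes was -0.18 after median centring, -0.17 after quantile normalization and 0.26 relative to the smooth muscle markers; that of the other calcium genes was -0.15 after median centring, 0.074 above the 40th percentile and 0.29 relative to those markers. The cause of these moves was not tested. The limma comparison left 846 probe sets under an unadjusted p of 0.05 (735 higher, 111 lower), and centring on the median made this 384 higher against 433 lower, quantile normalization 365 against 403. The count was 1439 with array weights, 1791 relative to the smooth muscle markers, and 366 (without high salt replicate 1) to 2722 (without low salt replicate 2) with 1 array left out.

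Samples share only a replicate number: the deviations of same-numbered arrays correlated at 0.04, -0.27 and 0.04, and low salt replicate 1 correlated best with high salt replicate 2. With the replicate block 716 probe sets stood at an unadjusted p below 0.05 and 0 passed. The block leaves the differences as they are, and it changed no call.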
